A study of Homo sapiens with 4 samples.

Results

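A set of 10 genes of steroid metabolism and of the androgen-repressed programme of prostate cells was followed in 22Rv1 cells, an established line of castration-resistant prostate cancer (CRPC in the labels). They were picked by symbol, and all 10 were found among the 63241 genes of the table: AKR1C1, AKR1C2, AKR1C3, HSD17B4, HSD17B10, SRD5A1, SRD5A3, UGT2B15, UGT2B17 and FOLH1. The cells had been treated for 12 h with 40 nM JMC45, a small molecule described as a CDK9 degrader, or for 12 h with the DMSO vehicle, and there were 2 libraries of poly(A)-selected RNA in each group. D45, the name used in the title of the series, was read as another name of JMC45. No androgen or genotype was varied, and all cells grew in medium with serum, so that "androgen-repressed" is background and was not tested here. Whether the 2 libraries of a group stem from separate cultures is not stated, so every p-value below reflects the variation between 2 libraries, which may be technical.

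Prostate cancer cells can make, activate and discard androgens themselves. The aldo-keto reductase AKR1C3 turns weak androgens into testosterone, the steroid reductase SRD5A1 turns testosterone into the stronger dihydrotestosterone, and AKR1C2 reduces dihydrotestosterone to a weak metabolite, while AKR1C1 mainly reduces progesterone. HSD17B4 and HSD17B10 oxidise hydroxysteroids in peroxisomes and mitochondria, and UGT2B15 and UGT2B17 attach glucuronic acid to androgens, which marks them for export. FOLH1, the prostate-specific membrane antigen, is a surface carboxypeptidase whose transcript, like those of UGT2B15 and UGT2B17, is known to be repressed by androgen.

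The starts of these genes differ in sequence, which is why some are shown here. Among the 8 genes with a start sequence, those with the largest decreases on TPM and those with the smallest changes lay on opposite sides of that difference. The windows run from 250 bases before to 50 bases after the RefSeq start (GRCh38.p14, printed on the gene's strand). Of the 10 genes 8 had one, and FOLH1 and UGT2B17 did not. Those of HSD17B4 and SRD5A3 were used but are not printed. Capitals mark CpG dinucleotides.
AKR1C1: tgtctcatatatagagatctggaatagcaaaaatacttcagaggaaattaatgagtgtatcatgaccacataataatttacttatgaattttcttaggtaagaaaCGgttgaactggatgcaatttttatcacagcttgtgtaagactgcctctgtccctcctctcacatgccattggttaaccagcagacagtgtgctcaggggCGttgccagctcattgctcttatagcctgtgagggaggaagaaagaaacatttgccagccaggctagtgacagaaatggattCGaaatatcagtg
AKR1C2: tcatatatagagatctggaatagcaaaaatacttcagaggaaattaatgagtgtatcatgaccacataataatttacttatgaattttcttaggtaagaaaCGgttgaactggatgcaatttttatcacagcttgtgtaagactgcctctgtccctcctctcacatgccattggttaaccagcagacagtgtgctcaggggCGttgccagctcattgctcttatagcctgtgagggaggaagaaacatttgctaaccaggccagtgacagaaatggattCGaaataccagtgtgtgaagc
AKR1C3: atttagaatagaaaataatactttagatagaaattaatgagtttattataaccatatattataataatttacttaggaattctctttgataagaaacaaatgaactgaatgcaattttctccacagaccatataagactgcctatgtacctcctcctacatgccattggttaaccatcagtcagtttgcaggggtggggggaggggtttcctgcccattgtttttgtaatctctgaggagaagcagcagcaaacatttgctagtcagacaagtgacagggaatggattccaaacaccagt
UGT2B15: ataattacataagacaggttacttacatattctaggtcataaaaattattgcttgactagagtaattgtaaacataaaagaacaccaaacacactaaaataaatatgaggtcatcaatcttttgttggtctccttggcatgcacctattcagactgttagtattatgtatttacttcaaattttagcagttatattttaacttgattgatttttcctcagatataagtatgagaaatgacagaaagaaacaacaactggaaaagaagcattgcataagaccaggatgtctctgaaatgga
HSD17B10: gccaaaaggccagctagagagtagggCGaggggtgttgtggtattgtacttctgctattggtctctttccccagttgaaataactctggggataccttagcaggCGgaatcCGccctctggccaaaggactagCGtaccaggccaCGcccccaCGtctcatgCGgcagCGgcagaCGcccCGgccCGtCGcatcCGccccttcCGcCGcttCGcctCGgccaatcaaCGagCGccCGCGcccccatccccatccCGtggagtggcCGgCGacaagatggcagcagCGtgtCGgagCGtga
SRD5A1: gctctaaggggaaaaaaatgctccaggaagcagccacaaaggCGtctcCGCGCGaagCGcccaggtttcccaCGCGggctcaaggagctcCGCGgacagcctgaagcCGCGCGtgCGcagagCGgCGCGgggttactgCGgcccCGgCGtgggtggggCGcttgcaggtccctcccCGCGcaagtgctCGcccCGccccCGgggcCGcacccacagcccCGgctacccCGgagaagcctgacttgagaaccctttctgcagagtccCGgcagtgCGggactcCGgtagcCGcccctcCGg
These are chr10:4963165-4963464 on the plus strand for AKR1C1, chr10:5003808-5004107 on the minus strand for AKR1C2, chr10:5094164-5094463 on the plus strand for AKR1C3, chr4:68670603-68670902 on the minus strand for UGT2B15, chrX:53434321-53434620 on the minus strand for HSD17B10 and chr5:6633190-6633489 on the plus strand for SRD5A1. The AKR1C1 and AKR1C2 windows were nearly the same sequence, with 98.6% identity over 292 aligned bases, whereas AKR1C3 had 79.5% identity to AKR1C1 and 80.6% to AKR1C2. AKR1C1 and AKR1C2 held 3 CpG each, and AKR1C3 (both of its listed starts) and UGT2B15 held 0. By contrast HSD17B4 held 19, HSD17B10 27 at the start printed here and 26 at its other start, SRD5A3 31 and SRD5A1 33.

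TPM is a share of the library scaled by transcript length, so it can be compared between genes, but a difference between groups is a difference in share. In these libraries most shares moved down together. Of 14018 genes with a mean of at least 1 TPM, limma on log2(TPM + 1) called 80.7% lower and 4.25% higher in JMC45 at a Benjamini-Hochberg adjusted p under 0.05, and the log2 change of the median gene was -1.10. Size-factor scaling (median of ratios), which centres the typical gene, moved that median to -0.02 and called 35.5% lower and 34.9% higher. Directions can therefore flip with the scaling, and for the genes tested that are described below both values are given. Mitochondrially encoded genes took 26.6% and 29.3% of TPM in JMC45, against 20.4% and 20.1% in vehicle. Log2 TPM correlated across genes at r = 0.985 within JMC45 and r = 0.984 within vehicle, and at 0.892 to 0.900 between the groups. CDK9 mRNA, which does not check a compound acting on the protein, was at 4.93 and 3.78 TPM in JMC45, against 20.15 and 22.45 TPM in vehicle. It was called lower on TPM (log2 change -2.06) and after size-factor scaling (-0.86). All 12 luminal markers were expressed in both groups, among them KRT8 (160.3 and 165.4 TPM in JMC45, against 198.2 and 208.2 TPM in vehicle). KRT8 was called lower on TPM (log2 change -0.32) and higher after size-factor scaling (1.03). The 6 leukocyte markers summed to 0.49 and 0.70 TPM in JMC45, against 1.75 and 1.76 in vehicle, with CD3E and TYROBP at 0, and the 5 endothelial markers to at most 0.04 TPM in any library, with CDH5 and KDR at 0. In bulk RNA, fewer cells of a kind and less RNA per cell cannot be told apart.

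The 10 genes spread over a wide range on the TPM scale. FOLH1, HSD17B10, HSD17B4 and SRD5A1 had log2 changes between -0.18 and 0.27, while AKR1C1, AKR1C2, AKR1C3 and UGT2B15 had means 2.11- to 2.93-fold lower in JMC45 than in vehicle, and SRD5A3 lay between. Of the 9 genes that passed the filter on low values, 6 fell and 1 rose, next to 80.7% and 4.25% of all genes. In 7 of the 10 genes both JMC45 libraries were below both vehicle libraries, as for 85.7% of all genes tested, and in 2 genes, SRD5A1 and FOLH1, both were above, as for 6.28%. After size-factor scaling 0 of the 9 fell and 5 rose (FOLH1, HSD17B4, HSD17B10, SRD5A1 and SRD5A3), next to 35.5% and 34.9% of all genes.

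**Figure D1:**
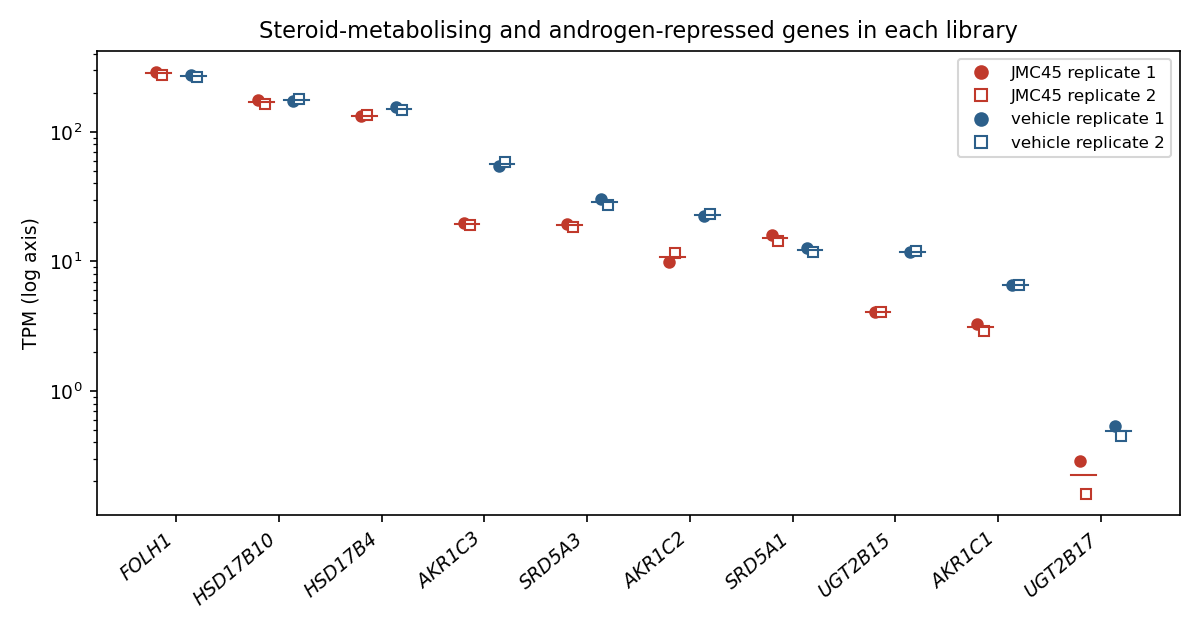
TPM of each gene in each library on a log axis, ordered by the mean of the vehicle libraries, with JMC45 in red left of vehicle in blue. Points are single libraries and short lines are group means of 2. FOLH1, HSD17B10 and HSD17B4 lead in all 4 libraries, while the TPM of the AKR1C genes and UGT2B15 is lower in JMC45. After size-factor scaling the AKR1C genes and UGT2B15 were not called in either direction. Their changes were then positive for AKR1C1 and AKR1C2 and negative for AKR1C3 and UGT2B15.

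FOLH1 was the most abundant of the 10 in every library. It measured 290.9 and 275.2 TPM in JMC45, against 274.9 and 264.6 TPM in vehicle. Both JMC45 values lay above both vehicle values, but the groups nearly met. The mean was 283.1 ± 11.1 TPM in JMC45 and 269.8 ± 7.26 TPM in vehicle (SD, n = 2 each), a log2 change of 0.07 with a 95% interval from -0.08 to 0.22 (limma adjusted p = 0.319). The interval allows a small change in either direction. Of all genes tested, 92.0% had a lower log2 change than FOLH1, and after size-factor scaling, where FOLH1 was called higher (1.42, limma adjusted p = 6.66e-05), 94.2% did. After quantile normalization FOLH1 was called higher by less (0.44, next to 0.02 for the median gene). It was called lower (-0.39) once the summed mitochondrially encoded TPM was set equal in all libraries. A near-identical copy, FOLH1B, shares 6.97% of the 150-base stretches of FOLH1 transcripts, and its more abundant entry was at 2.16 and 1.58 TPM in JMC45, against 3.30 and 2.29 TPM in vehicle. That entry was not called on TPM (log2 change -0.40) and was called higher after size-factor scaling (0.54).

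The pair of oxidising enzymes stood next in abundance. HSD17B10, which also forms part of the mitochondrial RNase P that trims mitochondrial tRNAs, measured 174.9 and 162.9 TPM in JMC45, against 173.4 and 181.1 TPM in vehicle. The groups overlapped, and the log2 change of -0.07 had a 95% interval from -0.23 to 0.09 (limma adjusted p = 0.347). HSD17B4, the peroxisomal multifunctional enzyme of fatty acid shortening, measured 132.3 and 135.0 TPM in JMC45, against 154.7 and 147.8 TPM in vehicle. Its values did not overlap, and it fell on TPM by 0.18 on the log2 scale (SE 0.06, limma adjusted p = 0.0319), a call that was lost without either JMC45 library or without vehicle replicate 1 (-0.14 to -0.19) and that became higher after size-factor scaling (1.17). It was also lost without the intensity trend and when TPM was recomputed without the mitochondrially encoded genes (-0.03). HSD17B10 was called higher after size-factor scaling (1.27) and lower once the mitochondrially encoded total was set equal (-0.53). On TPM both stood high among all genes, with 88.8% of genes at a lower change than HSD17B10 and 86.2% at a lower change than HSD17B4. After size-factor scaling these shares were 92.0% and 89.8%. Quantile normalization set them nearer the median gene (0.02), with changes of 0.32 for HSD17B10 and 0.30 for HSD17B4, both called higher.

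The 2 members of the steroid reductase family differed in direction on TPM. SRD5A1 measured 15.90 and 14.28 TPM in JMC45, against 12.75 and 11.84 TPM in vehicle, and was the only one of the 10 called higher (log2 change 0.27, 95% interval 0.02 to 0.53, limma adjusted p = 0.0458). After size-factor scaling it was 1.53. The call on TPM was close to the threshold: it was lost whichever of the 4 libraries was left out (0.20 to 0.35), without the intensity trend and when low genes were not filtered out. The change was -0.16 once the mitochondrially encoded total was set equal. SRD5A3 takes part in the conversion of polyprenol to dolichol, the lipid carrier of N-glycans, and has also been described as a steroid reductase. SRD5A3 measured 19.62 and 18.59 TPM in JMC45, against 30.12 and 27.12 TPM in vehicle. It fell on TPM by 0.56 on the log2 scale (SE 0.09, limma adjusted p = 0.00149), less than the median gene, and was called higher after size-factor scaling (0.74) and quantile normalization (0.61). Within a library, where the scaling cancels, there were 1.23 and 1.30 SRD5A3 transcripts per SRD5A1 transcript in JMC45, against 2.36 and 2.29 in vehicle, and the groups did not overlap. The third reductase of the family, SRD5A2, was at 0 TPM in both JMC45 libraries and at 0.01 TPM in both vehicle libraries.

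AKR1C3 had the largest decrease of the 10 on log2(TPM + 1), but UGT2B15 was close to it. With a pseudocount of 0.1 their log2 changes were -1.54 for AKR1C3 and -1.52 for UGT2B15. AKR1C3 measured 19.70 and 19.26 TPM in JMC45, against 55.04 and 58.94 TPM in vehicle. The means were 19.5 ± 0.311 TPM in JMC45 and 56.99 ± 2.76 TPM in vehicle (SD, n = 2 each). On TPM it fell by 1.5 on the log2 scale (SE 0.08, limma adjusted p = 1.64e-05), and by 0.47 after quantile normalization, but its change of -0.19 after size-factor scaling was not called (limma adjusted p = 0.174). On TPM 32.8% of all genes had a lower change than AKR1C3, and 42.8% did after size-factor scaling. AKR1C2 measured 9.94 and 11.57 TPM in JMC45, against 22.42 and 23.44 TPM in vehicle, and AKR1C1 measured 3.30 and 2.90 TPM in JMC45, against 6.54 and 6.55 TPM in vehicle. For both the groups were far apart next to the spread within them. On TPM, AKR1C2 fell by 1.03 (limma adjusted p = 0.000185) and AKR1C1 by 0.88 (limma adjusted p = 0.000888), whereas after size-factor scaling their changes were 0.24 and 0.22 and not called, and after quantile normalization AKR1C1 was called higher (0.46).

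Reads of the 3 AKR1C genes can be split wrongly between them. Of the distinct 150-base stretches in GENCODE release 29 transcripts, 10.0% of those of AKR1C1 and 13.7% of those of AKR1C2 also occur in another gene, mostly in each other, against 0.444% for AKR1C3. The sum over the 3 genes does not depend on that split. It was 32.94 and 33.73 TPM in JMC45, against 84.00 and 88.93 TPM in vehicle, and fell by 1.35 on the log2 scale on TPM (SE 0.07, limma adjusted p = 1.65e-05). The change was -0.02 and not called after size-factor scaling, but -0.49 and called lower after quantile normalization (limma adjusted p = 0.00356). The family's make-up also differed, as the plot of its composition shows: AKR1C3 supplied 59.8% and 57.1% of the sum in JMC45, against 65.5% and 66.3% in vehicle, while AKR1C2 supplied 30.2% and 34.3% in JMC45, against 26.7% and 26.4% in vehicle. These shares do not depend on the scaling of libraries and did not overlap between groups, and they were not tested. AKR1C4, the liver-type member of the family, stayed below the filter at 0.07 TPM in both JMC45 libraries, against 0.24 and 0.33 TPM in vehicle.

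**Figure D2:**
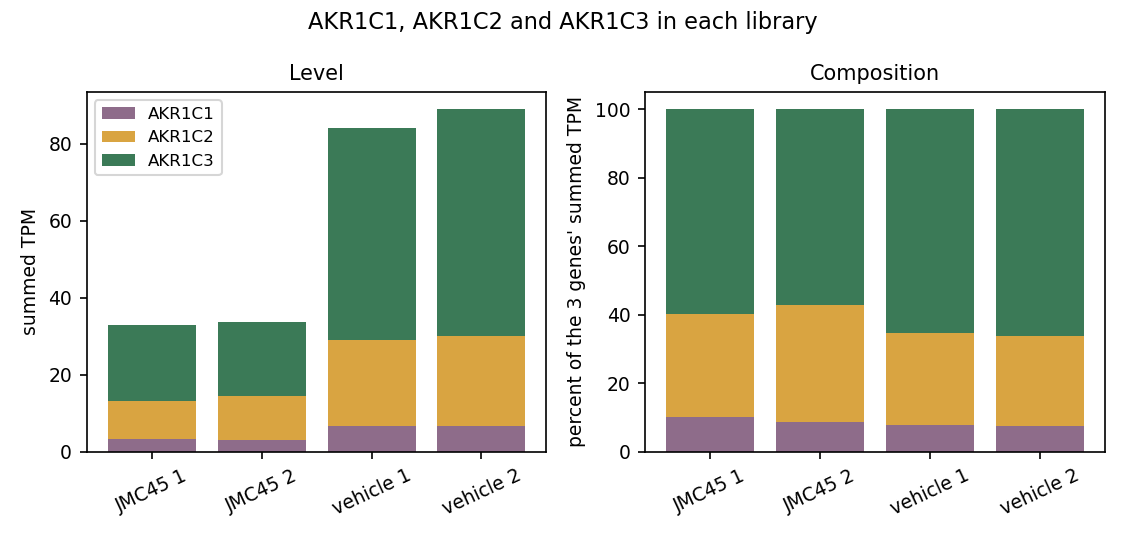
Summed TPM of AKR1C1, AKR1C2 and AKR1C3 in each library (left) and each gene's percent of that sum (right), JMC45 libraries left of vehicle libraries. The sum is 32.94 and 33.73 TPM in JMC45 and 84.00 and 88.93 TPM in vehicle, and the AKR1C3 part is smaller in both JMC45 libraries.

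The glucuronosyltransferases had lower TPM in both JMC45 libraries than in both vehicle libraries. UGT2B15 measured 4.10 and 4.06 TPM in JMC45, against 11.75 and 12.02 TPM in vehicle. The libraries of a group differed little and the groups were well apart. On TPM it fell by 1.34 on the log2 scale (SE 0.11, limma adjusted p = 7.22e-05), and its changes of -0.17 after size-factor scaling and 0.03 after quantile normalization were not called. UGT2B17 was near the bottom of the measurable range, at 0.29 and 0.16 TPM in JMC45, against 0.54 and 0.45 TPM in vehicle. It did not pass the filter on low values and has no test, and its log2 difference was -0.29. UGT2B15 and UGT2B17 share 4.88% of their 150-base stretches, and their sum, 4.39 and 4.22 TPM in JMC45, against 12.29 and 12.47 TPM in vehicle, fell by 1.33 on TPM (limma adjusted p = 7.17e-05) and was at -0.15 after size-factor scaling.

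The order of the genes by level differed between the groups in the middle of the list. FOLH1, HSD17B10 and HSD17B4 led in both groups, with no overlap between neighbours in that order, and together made up 89.1% and 89.0% of the summed TPM of the 10 genes in JMC45, against 81.2% and 80.9% in vehicle. AKR1C3 was clearly above SRD5A3 in vehicle, while in JMC45 the values of these 2 genes overlapped. AKR1C2 was above SRD5A1 in vehicle and below it in JMC45, and SRD5A1, whose values overlapped those of UGT2B15 in vehicle, was clearly above UGT2B15 in JMC45. There were 1.24 and 1.35 transcripts of AKR1C3 per transcript of SRD5A1 in JMC45, against 4.32 and 4.98 in vehicle. AKR1C3 over FOLH1 was 0.0677 and 0.0700 in JMC45, against 0.200 and 0.223 in vehicle, and UGT2B15 over FOLH1 was 0.0141 and 0.0148 in JMC45, against 0.0427 and 0.0454 in vehicle. These ratios are free of library scaling, and show unequal change and not which gene changed.

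**Figure D3:**
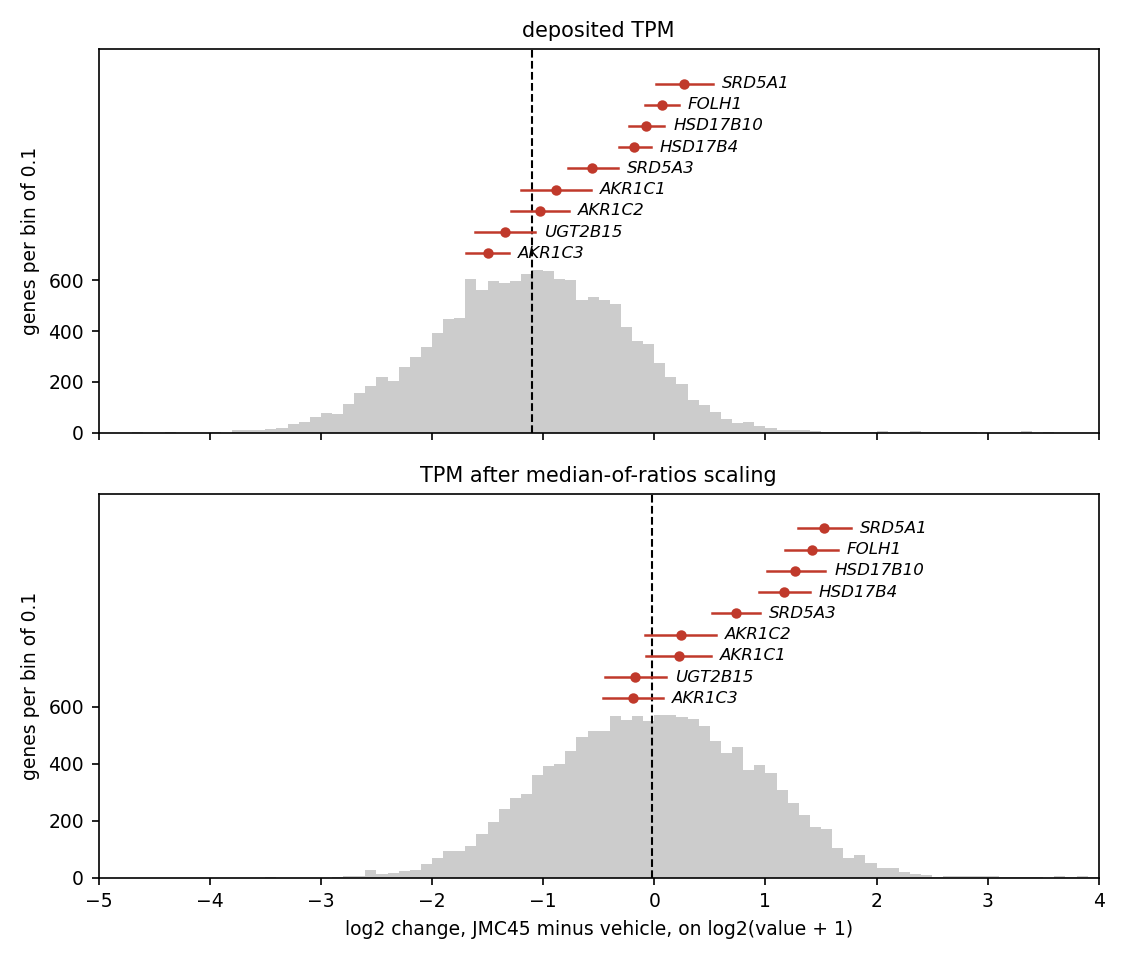
Log2 change (JMC45 minus vehicle) of the 9 tested genes as red points with 95% intervals, above the distribution of all 14018 genes in grey bins of 0.1, on deposited TPM (top) and after size-factor scaling (bottom). The dashed line is the median gene, at -1.10 and -0.02. SRD5A1, FOLH1, HSD17B10 and HSD17B4 lie at the upper edge in both panels, and the AKR1C genes and UGT2B15 near the middle.

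Among the 8 genes with a window, the split went along with the CpG content of the starts, whether printed above or not. FOLH1, with a change near that of HSD17B10, had no window and is not part of this. The 4 genes with 0 to 3 CpG per window changed by -0.88 to -1.5 on TPM, and the 4 with 19 to 33 CpG by -0.56 to 0.27, a description over 8 genes of which several share ancestry. Across the genome no such relation was seen. Of 11366 protein-coding genes tested, 9429 (83.0%) had a window, and the 296 genes with 0 to 3 CpG had a median change of -0.97, against -0.98 for 635 genes with 4 to 10, -1.14 for 1279 genes with 11 to 18, -1.26 for 2469 genes with 19 to 26 and -1.12 for 4750 genes with 27 or more. The median of the CpG-poor class was thus not below the others. The classes also differed in level, with a median of 5.51 TPM for 0 to 3 CpG, against 14.7 TPM for 19 to 26 and 12.4 TPM for 27 or more. Since log2(TPM + 1) understates changes of low genes, level and CpG content were not separated here. Motif letters were searched on both strands of the windows: the androgen response hexamer AGAACA was found in UGT2B15 alone of the 8 genes and in 14.8% of all 35116 windows, the full palindromic androgen response element, which contains that hexamer, in none of the 8 and in 1 window in all, and the antioxidant response element TGACNNNGC in SRD5A3 alone and in 13.3% of all windows. A CCAAT box (CCAAT) was present in AKR1C1, AKR1C2, both starts of AKR1C3 and HSD17B10, and in 34.6% of all windows. The TATA box letters TATAAA were found in the other start of AKR1C3, not printed here, and in 11.5% of all windows.

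**Figure D4:**
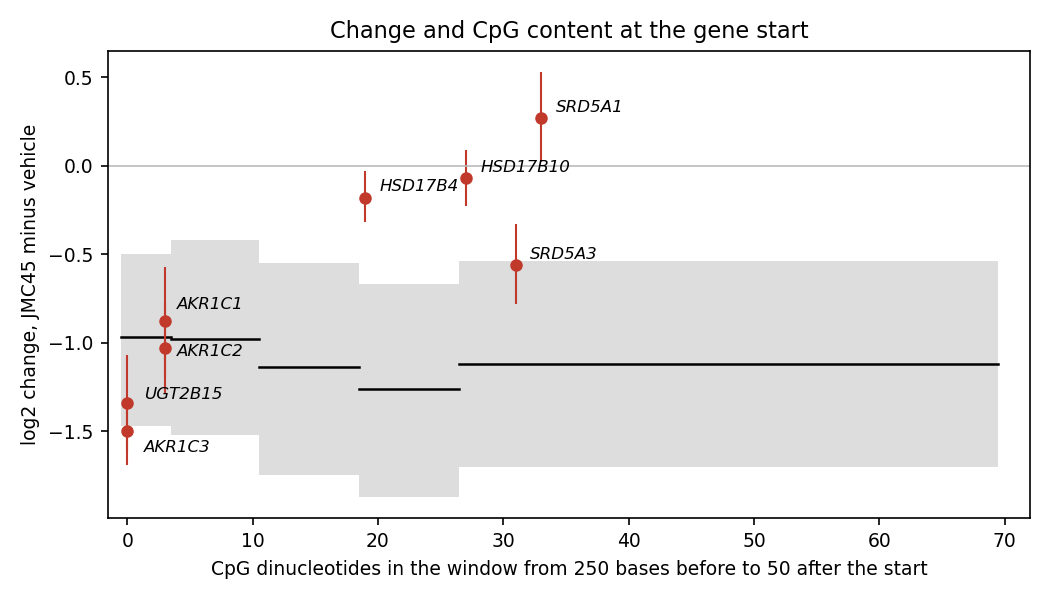
Log2 change (JMC45 minus vehicle, TPM scale) of the 8 genes with a promoter window against the number of CpG in it, red points with 95% intervals. Black lines are medians and grey bands the interquartile range of all protein-coding genes in each CpG class. The 4 red points with 0 to 3 CpG lie between -1.5 and -0.88 and the 4 with 19 to 33 CpG between -0.56 and 0.27, with no steady order within either set, while the medians of all genes stay between -0.97 and -1.26.

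The list of androgen synthesis and interconversion held 35 genes, of which 18 passed the filter: 11 fell and 1 rose on TPM, next to 80.7% and 4.25% of all genes, with a median change of -0.42 next to -1.10, while size-factor scaling gave 2 decreases and 12 increases. Without JMC45 replicate 2 or without vehicle replicate 1, 7 fell on TPM. The sterol and estrogen enzyme HSD17B7 was at 6.0 and 5.64 TPM in JMC45, against 23.18 and 21.97 TPM in vehicle (log2 change -1.79), and HSD17B11, a lipid-droplet steroid dehydrogenase, at 19.06 and 17.21 TPM in JMC45, against 62.69 and 63.52 TPM in vehicle (-1.75). Both also fell after size-factor scaling (-0.55 and -0.44). H6PD, which supplies NADPH in the endoplasmic reticulum, fell by 0.99 and POR, the electron donor of microsomal cytochromes P450, by 0.94 on TPM, and after size-factor scaling H6PD was not called (0.03) and POR was called higher (0.37). HSD17B12, an enzyme of fatty acid elongation, was at 43.16 and 44.69 TPM in JMC45, against 42.40 and 35.72 TPM in vehicle, and was not called on TPM (log2 change 0.17) but was called higher after size-factor scaling (1.49). The single increase on TPM was HSD17B14, at 1.68 and 1.56 TPM in JMC45, against 1.03 and 0.92 TPM in vehicle. Its log2 change was 0.41 on TPM (limma adjusted p = 0.0378) and 1.16 after size-factor scaling. The call on TPM was lost without either JMC45 library, without vehicle replicate 2, with a pseudocount of 0.1 and when low genes were kept. CYP17A1 and HSD3B1, both enzymes of androgen synthesis, were at or near 0: CYP17A1 reached at most 0.05 TPM in any library and HSD3B1 was listed at 0 in all 4.

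Of 30 genes that conjugate steroids or undo it, 13 passed the filter, of which 11 fell and 0 rose on TPM, next to 80.7% and 4.25% of all genes, with a median of -0.78 next to -1.10. Size-factor scaling gave 1 decrease and 6 increases, and 1 gene rose on TPM without vehicle replicate 1. UGDH, which makes the UDP-glucuronic acid that UGT2B15 and UGT2B17 use, was at 36.29 and 37.27 TPM in JMC45, against 105.0 and 95.41 TPM in vehicle (log2 change -1.42, and -0.09 and not called after size-factor scaling). SLC35D1, which carries that sugar donor into the endoplasmic reticulum, fell by 1.25 and BPNT1, which clears a by-product of sulfation, by 1.26, and neither was called after size-factor scaling (-0.23 and 0.06). SLC35B3, a carrier of the sulfate donor, was at 1.19 and 1.35 TPM in JMC45, against 11.10 and 10.87 TPM in vehicle, and fell under both scalings (-2.40 and -1.38). The steroid sulfatase STS was at 1.91 and 1.67 TPM in JMC45, against 3.08 and 2.25 TPM in vehicle, and was not called on TPM (-0.39), whereas it was called higher after size-factor scaling (0.54) and lower once the mitochondrially encoded total was set equal (-0.70). UGT2B10 reached 1.08 TPM and UGT2B11 0.57 TPM at most, in vehicle, UGT2B28 0.07 TPM and SULT2B1 0.28 TPM, and UGT2B15 was the only UGT2B gene to pass the filter.

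HSD17B10 works both in isoleucine breakdown and in RNase P. Of 20 genes of mitochondrial branched-chain and fatty acid breakdown and of tRNA processing, 7 rose and 6 fell on TPM, next to 4.25% and 80.7% of all genes, with a median of 0.05 next to -1.10 for all genes, and size-factor scaling gave 17 increases and 1 decreases. TRMT10C, the methyltransferase that binds HSD17B10 in RNase P, was at 9.33 and 8.30 TPM in JMC45, against 61.05 and 59.83 TPM in vehicle (log2 change -2.65, limma adjusted p = 9.82e-06). The nuclease PRORP of the same complex fell by 1.14 and ELAC2, which trims the other end of tRNAs, by 1.12 on TPM. After size-factor scaling TRMT10C still fell (-1.37), and PRORP (0.03) and ELAC2 (0.19) were not called. There were 18.7 and 19.6 HSD17B10 transcripts per TRMT10C transcript in JMC45, against 2.84 and 3.03 in vehicle. On the side of isoleucine breakdown, ACAT1, which acts just after HSD17B10, was at 169.6 and 172.5 TPM in JMC45, against 115.9 and 114.3 TPM in vehicle (log2 change 0.57, limma adjusted p = 0.000169, and 1.91 after size-factor scaling). ECHS1, which acts just before it and was singled out after its values were seen, was at 305.9 and 296.4 TPM in JMC45, against 225.7 and 252.1 TPM in vehicle (log2 change 0.33, and 1.68 after size-factor scaling). Other genes of that route, given here to show its range, were mixed on TPM. BCAT2 (-0.19) and DBT (-0.53) fell, BCKDHB (0.30) rose, and BCKDHA (0.05), DLD (-0.03) and ACADSB (-0.22) were not called. After size-factor scaling all of these were called higher (0.70 to 1.59). No gene of this list was called higher once the mitochondrially encoded total was set equal.

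Around HSD17B4, 16 of 22 tested peroxisomal genes fell and 2 rose on TPM, next to 80.7% and 4.25% of all genes, with a median of -0.76, and size-factor scaling gave 2 decreases and 14 increases. HACL1, the lyase of alpha-oxidation, was at 3.86 and 3.27 TPM in JMC45, against 28.42 and 31.59 TPM in vehicle, and fell under both scalings (log2 change -2.76 and -1.56). The import factor PEX14 (-1.58) and the racemase AMACR (-1.39) fell on TPM and were not called after size-factor scaling (-0.42 and -0.26). The increases on TPM were those of PHYH, which acts with HACL1 on phytanic acid (38.52 and 39.70 TPM in JMC45, against 25.01 and 24.65 TPM in vehicle), and of SCP2, the thiolase and sterol carrier that acts after HSD17B4 (203.9 and 205.3 TPM in JMC45, against 163.7 and 165.5 TPM in vehicle). Their log2 changes were 0.63 for PHYH and 0.31 for SCP2 on TPM, and 1.94 for PHYH and 1.66 for SCP2 after size-factor scaling. Neither was called higher once the mitochondrially encoded total was set equal.

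Dolichol, in whose synthesis SRD5A3 takes part, carries the sugar chain that is later moved onto proteins. Of 26 genes of dolichol and N-glycan precursor synthesis, 25 fell and 1 rose on TPM, next to 80.7% and 4.25% of all genes, with a median of -1.33, and size-factor scaling gave 10 decreases and 9 increases. DOLK, the kinase that activates dolichol, was at 1.05 and 0.98 TPM in JMC45, against 19.11 and 19.32 TPM in vehicle, a 18.9-fold lower mean. Its log2 change was -3.33 on TPM and -2.31 after size-factor scaling. The mannosyltransferases ALG3 (-2.97 and -1.76) and ALG2 (-2.13 and -0.91) and the dolichol recycling phosphatase DOLPP1 (-2.28 and -1.10) also fell under both scalings. DHDDS, a subunit of the enzyme that builds the polyprenol chain, fell by 0.94 on TPM and was called higher after size-factor scaling (0.34), as SRD5A3 was. The increase was that of DPM3, a small subunit of dolichol-phosphate mannose synthase, at 266.4 and 253.3 TPM in JMC45, against 153.0 and 196.1 TPM in vehicle (log2 change 0.58, and 1.93 after size-factor scaling), which was not called higher once the mitochondrially encoded total was set equal. There were 18.7 and 19 transcripts of SRD5A3 per transcript of DOLK in JMC45, against 1.58 and 1.40 in vehicle.

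**Figure D5:**
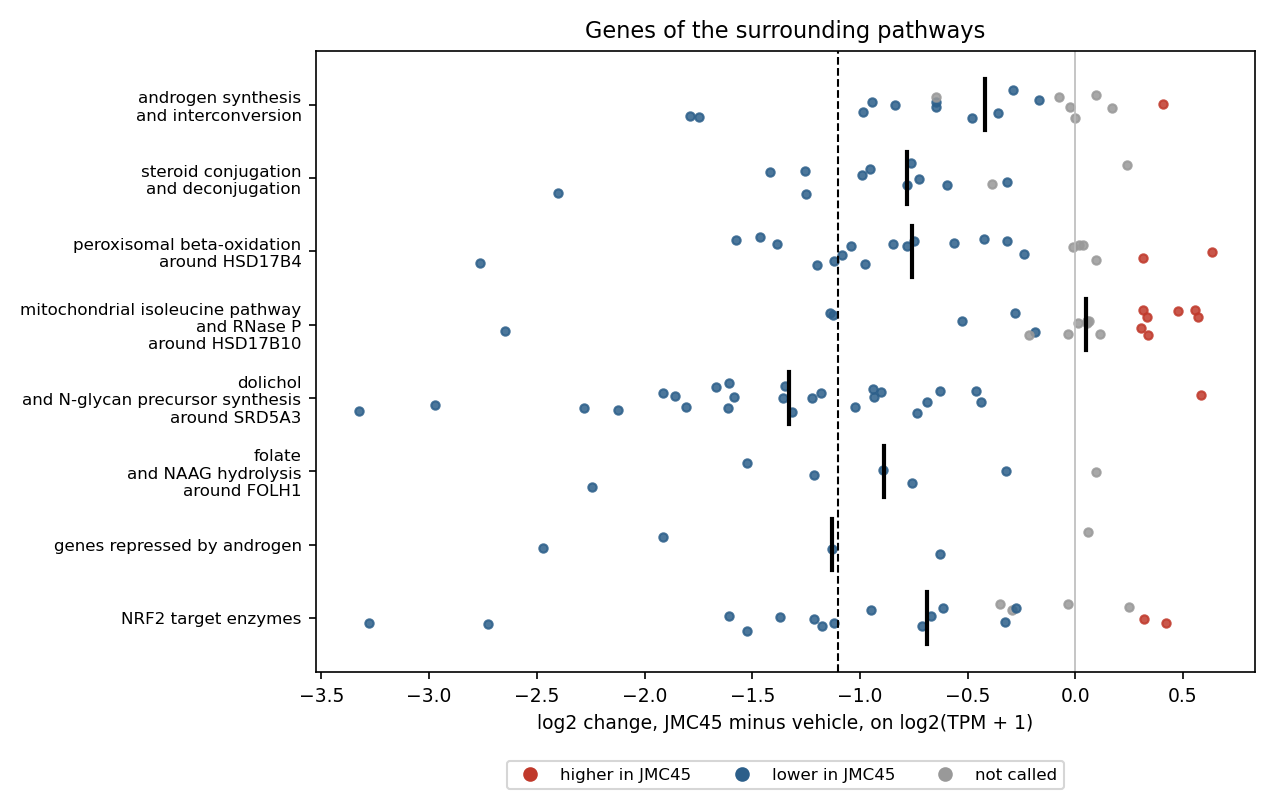
Log2 change (JMC45 minus vehicle, TPM scale) of every tested gene in 8 lists of surrounding pathways, red for higher, blue for lower and grey for not called. Black bars are list medians and the dashed line is the median of all genes at -1.10. The mitochondrial list around HSD17B10 has its median at 0.05, and the dolichol list around SRD5A3 at -1.33.

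FOLH1 releases folate from its polyglutamate form and cleaves the neuropeptide NAAG. Of 12 genes that share these tasks or move folate, 7 passed the filter, of which 6 fell and 0 rose on TPM, next to 80.7% and 4.25% of all genes, with a median of -0.89, and size-factor scaling gave 2 decreases and 3 increases. The mitochondrial folate carrier SLC25A32 was at 2.62 and 2.56 TPM in JMC45, against 16.01 and 15.99 TPM in vehicle (log2 change -2.24), and the reduced folate carrier SLC19A1 at 0.78 and 0.61 TPM in JMC45, against 4.05 and 3.71 TPM in vehicle (-1.53). Both fell after size-factor scaling as well (-1.10 and -0.70). The proton-coupled carrier SLC46A1 (-1.21) and FPGS, which adds the glutamates that FOLH1 removes (-0.89), fell on TPM, with 0.00 and 0.39 after size-factor scaling, where FPGS was called higher. The FOLH1 relative NAALAD2 stayed below the filter, at 0.96 and 0.72 TPM in JMC45, against 1.29 and 0.98 TPM in vehicle.

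A list of other transcripts, drawn up as androgen-repressed, was measured beside FOLH1, UGT2B15 and UGT2B17. Whether androgen lowers each of them was not tested here. Of the 12 genes listed, 5 passed the filter, of which 4 fell and 0 rose on TPM, next to 80.7% and 4.25% of all genes. Their median was -1.13 next to -1.10, and size-factor scaling gave 2 decreases and 2 increases. TMEFF2, a membrane protein of prostate and brain, was at 4.84 and 5.23 TPM in JMC45, against 32.24 and 32.60 TPM in vehicle, and CAMK2N1, a kinase inhibitor, at 1.17 and 0.86 TPM in JMC45, against 7.22 and 5.97 TPM in vehicle. Both fell under both scalings (-2.47 and -1.24 for TMEFF2, -1.91 and -0.97 for CAMK2N1). The cholinesterase BCHE, at 6.21 and 4.35 TPM in JMC45, against 9.76 and 7.58 TPM in vehicle, fell by 0.63 on TPM. It was called higher after size-factor scaling (0.55).

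AKR1C1, AKR1C2 and AKR1C3 are also textbook targets of the stress factor NRF2. Of 22 NRF2 genes and regulators, 20 passed the filter, of which 14 fell and 2 rose on TPM, next to 80.7% and 4.25% of all genes, with a median of -0.69, and size-factor scaling gave 5 decreases and 11 increases. Without vehicle replicate 1 a single gene rose on TPM. GCLC, the catalytic subunit of glutathione synthesis, was at 3.68 and 5.20 TPM in JMC45, against 55.51 and 47.43 TPM in vehicle, and KEAP1, which keeps NRF2 unstable, at 4.67 and 5.73 TPM in JMC45, against 39.14 and 40.68 TPM in vehicle. Both fell under both scalings (-3.28 and -2.05 for GCLC, -2.73 and -1.49 for KEAP1), as did NFE2L2, which encodes NRF2 (-1.61 and -0.34), while SRXN1 (-1.52) was not called after size-factor scaling (-0.23). NQO1, the target most often used as a readout, was at 30.11 and 31.01 TPM in JMC45, against 38.44 and 38.77 TPM in vehicle (log2 change -0.33, and 0.99 and called higher after size-factor scaling). The increases on TPM were the ferritin subunits FTH1 (1277 and 1200.0 TPM in JMC45, against 905.5 and 941.9 TPM in vehicle) and FTL (713.4 and 640.5 TPM in JMC45, against 541.1 and 543.5 TPM in vehicle), with log2 changes of 0.42 for FTH1 and 0.32 for FTL. After size-factor scaling these were 1.77 for FTH1 and 1.67 for FTL, and neither was called higher once the mitochondrially encoded total was set equal. The list thus held genes that changed by much more and by much less than the AKR1C genes.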

How the data were processed

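RNA of 22Rv1 cells was sequenced in 2 JMC45 and 2 vehicle libraries from a stranded poly(A) kit, per the labels' protocols. The deposited values are TPM per Ensembl gene and library, per the file headers. fastp, HISAT2 and StringTie are named, without versions or roles, in the submitters' processing notes, while the build, annotation and strand setting were not given in the sources used here. TPM keeps no depth, so the depth is unknown and no counting interval is given. The table held 63241 genes, of which 62666 matched a symbol, and a further 50 empty lines were dropped.

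Values were tested as log2(TPM + 1), which understates changes of low genes, over the 14018 genes averaging 1 TPM or more. Two-sided tests came from limma 3.58.1 (R 4.3.3), without replicate block and with the variance prior following intensity, and with Benjamini-Hochberg adjustment over all genes tested at a threshold of 0.05. "Rose" and "fell" are used only of genes past it, and with 2 libraries against 2 no exact permutation test can pass that threshold. Paralog sums were fitted as added rows. The closing section gives the effect of 12 other settings and of 1 chosen after seeing the data. Columns named CTL were read as vehicle, by number.

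The members and the lists were chosen with earlier results of these data known. Named are the 10 genes, CDK9, up to 4 genes with the largest change past the threshold in each of 8 lists, up to 3 that moved against the rest of a list, and close paralogs and partners listed by symbol, among them AKR1B1, which stayed below the filter (0.26 and 0.48 TPM in JMC45, against 0.62 and 0.33 TPM in vehicle). Some genes that this rule names are not reported here. Promoter windows and transcripts were read from RefSeq (GRCh38.p14) and GENCODE release 29 with Biopython 1.88, numpy 2.4.6 and pandas 2.3.3 under Python 3.11.15, and figures were drawn with matplotlib 3.10.9.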

Additional observations from a re-analysis of the deposited data

How the results depend on the processing

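The scaling of the libraries decided the direction of many results. Over all genes, 596 were higher and 11311 lower on TPM, against 4888 and 4981 after size-factor scaling, 4716 and 4603 after quantile normalization and 181 and 12685 once the mitochondrially encoded total was set equal, an alternative chosen after seeing the data. Of the 10 genes, 1 was higher and 6 lower on TPM, against 5 and 0 after size-factor scaling, 6 and 1 after quantile normalization, 2 higher with TPM recomputed without the mitochondrially encoded genes, 0 higher and 8 lower with an equal mitochondrially encoded total, and 0 higher without the filter on low values, without the intensity trend or without each library in turn (0 to 0). After size-factor scaling the log2 change was 0.22 for AKR1C1, 0.24 for AKR1C2, 1.17 for HSD17B4, 1.27 for HSD17B10 and 0.74 for SRD5A3, the AKR1C sum was -0.02 (limma adjusted p = 0.873) and the UGT2B sum -0.15 (adjusted p = 0.269). After quantile normalization it was 0.46 for AKR1C1, 0.25 for AKR1C2, 0.30 for HSD17B4, 0.32 for HSD17B10, 0.61 for SRD5A3, 0.03 for UGT2B15 and 0.04 for the UGT2B sum (adjusted p = 0.716). The AKR1C sum was still called lower after quantile normalization (-0.49, limma adjusted p = 0.00356). HSD17B10 was at 0.08 without the mitochondrially encoded genes, and with their total held equal SRD5A1 was at -0.16, FOLH1 at -0.39 and HSD17B10 at -0.53. These shifts follow from how each scaling is built. In the list around HSD17B10, 6 genes fell on TPM, against 13 with that total held equal and 3 without the mitochondrially encoded genes. The other settings (pseudocount 0.1, a mean TPM of at least 5, no filter, no intensity trend, the block and each library left out) turned the direction of none of the 9 tested genes. AKR1C1 has no value at a mean of at least 5, and UGT2B17 none after quantile normalization. The deviations of same-numbered libraries from their group means correlated at -0.05 across genes, and the labels do not say that a number marks a shared culture, so the pairing was not used. With the replicate block the 6 decreases became 5, since HSD17B4 (-0.18, limma adjusted p = 0.0671) was lost, and SRD5A1 stayed higher. The increase of HSD17B14 was lost under the block too. TPM keeps no depth, which leaves the precision of UGT2B17 and other low genes unknown.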

Other observations

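Genes beside or across the members were low. AKR1E2, which lies next to the AKR1C genes, was at 0.12 and 0.18 TPM in JMC45, against 1.14 and 0.64 TPM in vehicle. SRD5A3-AS1, antisense to SRD5A3, was at 0.05 and 0.09 TPM in JMC45, against 0.75 and 1.14 TPM in vehicle, far below SRD5A3 itself. Since the use of strand is not given, reads of the antisense pair cannot be told apart.

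Of 7 markers of neuroendocrine cells, which CRPC lines can express, 3 passed the filter. CHGB was at 11.72 and 12.01 TPM in JMC45, against 11.85 and 12.08 TPM in vehicle, SYP at 35.02 and 32.81 TPM in JMC45, against 38.83 and 38.10 TPM in vehicle, and SCG3 at 25.34 and 25.26 TPM in JMC45, against 25.19 and 23.47 TPM in vehicle. On TPM 0 of these 3 were called. All 3 were called higher after size-factor scaling, and lower with the mitochondrially encoded total held equal (-0.44 for CHGB, -0.63 for SYP and -0.39 for SCG3). CHGA, below the filter, was at 0.34 and 0.48 TPM in JMC45, against 0.83 and 1.18 TPM in vehicle. INSM1 was at 0 in all libraries. Of 7 fibroblast and stromal markers 3 were tested and 0 called on TPM, with LUM at 5.36 and 3.20 TPM in JMC45, against 4.04 and 3.96 TPM in vehicle. After size-factor scaling 2 of these 3 were called higher, LUM (1.13) and ACTA2 (1.27). Of 6 basal epithelial markers KRT15 was the only one tested (0.91 and 1.27 TPM in JMC45, against 1.41 and 1.04 TPM in vehicle), and KRT5 was at 0. KRT15 was not called on TPM (-0.09) and was called higher after size-factor scaling (0.63).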
